A study of Mus musculus with 2 samples.

Results

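The secreted Frizzled-related proteins and the Dickkopfs are the main families of secreted Wnt antagonists. The 9 genes described here, Sfrp1, Sfrp2, Frzb (also called Sfrp3), Sfrp4, Sfrp5, Dkk1, Dkk2, Dkk3 and Dkk4, were taken by name, out of 19938 genes measured on the array. Each gene had 1 probe set that mapped to a single gene symbol, and none was also represented by a probe set shared with another gene. The cells were dermal cells from the back skin of C57BL/6 mouse pups at birth, grown for 24 h and then transfected for 48 h at 10 nM with siRNAs against β-catenin (1 array) or with a control siRNA (1 array). Both cultures were therefore siRNA-transfected primary cells of the same strain, and the labels state neither how many pups or cultures were pooled nor the sequence of either siRNA. With 1 array per group no difference below has a replicate error, and none could be tested.

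Wnt proteins bind a Frizzled receptor together with Lrp5 or Lrp6, and the receptor complex spares β-catenin from degradation so that it can act with TCF/LEF factors on target genes. Secreted Frizzled-related proteins carry a cysteine-rich domain like that of the Frizzled receptors and can bind Wnt proteins outside the cell. Dickkopf proteins act on the other part of the receptor complex. Dkk1, Dkk2 and Dkk4 bind Lrp5 and Lrp6, and Kremen proteins can strengthen that inhibition, whereas Dkk3 is a divergent family member that is not a typical Lrp6 antagonist. In skin, fibroblasts and dermal papilla cells are known sources of both families, and forced expression of Dkk1 in skin is known to block hair follicle formation.

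The values are the submitters' log2 values from robust multi-array average (RMA) processing, in which a difference of 1 is a 2-fold difference in signal. RMA makes the arrays' distributions alike, so a difference is relative to the other genes, and it shrinks the differences of dim probe sets. A gene was said to pass the level filter if its higher value reached 5.13, the median of all gene means, and 10197 genes did. The target itself was lower. Ctnnb1, which encodes β-catenin, had a log2 value of 9.34 on the β-catenin siRNA array, against 10.48 on the control siRNA array, which left 45.2% of the control signal (log2 difference -1.14). All 12 fibroblast markers on a list that included Col1a1, Col1a2, Pdgfra and Vim passed the level filter. No endothelial, macrophage, skeletal muscle or adipocyte list had more than 1 gene past the filter, and none of 5 measured Schwann cell markers passed. Among keratinocyte markers 7 of 14 passed (median difference 0.62). Krt5 had 8.65 on the β-catenin siRNA array and 7.64 on the control siRNA array, and Krt14 had 8.65 and 8.03. Of the melanocyte list 3 of 8 genes passed (median difference -0.27), and of the pericyte and smooth muscle list 4 of 8 (median difference -0.22). In the latter list Acta2 was bright on both arrays (12.86 on the β-catenin siRNA array, 12.98 on the control siRNA array). Myh11 was the 1 gene of that list past 1.5-fold, with a difference of -0.68.

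The secreted Frizzled-related protein genes above the level filter were all higher after β-catenin siRNA, and the Dickkopf genes above it were not. Of the 9 genes, 5 passed the filter, namely Sfrp1, Sfrp2, Frzb, Dkk2 and Dkk3. Of these 5, Sfrp2, Sfrp1 and Frzb, that is 3, exceeded 1.5-fold upward, as did 2.76% of all genes past the filter. None of the 5 exceeded 1.5-fold downward, as did 1.84% of all genes past the filter. The median difference over the 5 was 0.84, which is Frzb's own value, against -0.02 over all genes past the filter. With both arrays required at the filter, which leaves out Frzb, the median over the other 4 was 0.42. The median of 0.84 describes genes that reached the filter on at least 1 array. Over all 9 genes, dim ones included, the median was -0.11, with 3 genes higher and 6 lower by any amount.

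**Figure D1:**
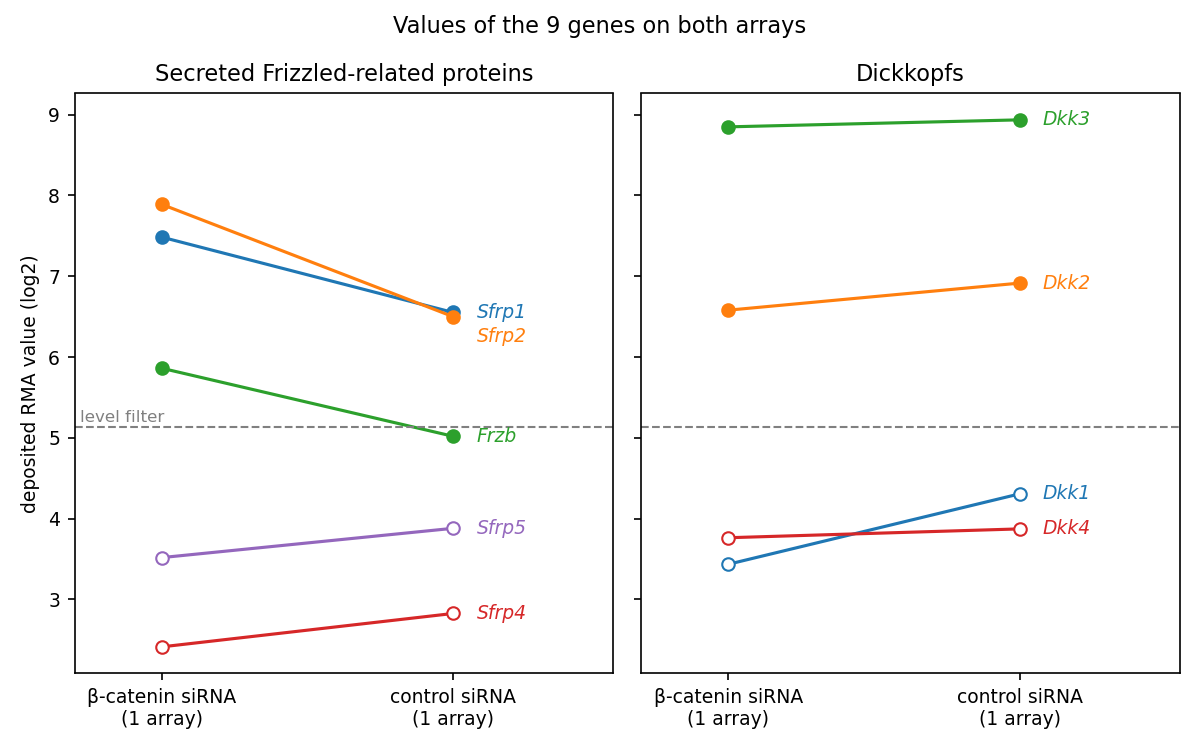
Deposited log2 RMA values of the 9 genes on the β-catenin siRNA array (left in each panel) and the control siRNA array (right), with 1 array per group and a line joining the values of a gene. Filled points mark genes that pass the level filter of 5.13 (dashed line), and Sfrp1, Sfrp2 and Frzb are the genes whose lines stand higher on the β-catenin siRNA side.

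Sfrp2 had the largest difference of the 9 genes. It encodes a secreted Frizzled-related protein made by fibroblasts and mesenchymal cells. Its probe set (10492798, Entrez gene 20319) had a log2 value of 7.89 on the β-catenin siRNA array, against 6.50 on the control siRNA array. Both values stood above the level filter, and the difference of 1.39 is 2.62-fold. It ranked 39 from the highest among the 10197 genes past the filter, and it was the one gene of the 9 that was at least 2-fold higher, as were 0.912% of all genes past the filter.

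Sfrp1, the family's namesake and an inhibitor of Wnt signalling in many tissues, had a log2 value of 7.48 on the β-catenin siRNA array, against 6.55 on the control siRNA array (probe set 10570957, Entrez gene 20377). The difference of 0.93 is 1.91-fold, and it ranked 116 from the highest. Both Sfrp1 values also lay clear of the filter. The difference of Sfrp2 was 0.46 larger than that of Sfrp1 on the log2 scale, and with 1 array per group it is not known whether these sizes differ beyond error.

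Frzb, first known as a chondrogenic factor of the limb skeleton and an antagonist of Wnt ligands, was the dimmer case. Its log2 value was 5.86 on the β-catenin siRNA array, against 5.02 on the control siRNA array (probe set 10484307, Entrez gene 20378). The value on the control siRNA array lay 0.12 under the level filter, so the difference of 0.84 (1.79-fold, rank 147) rests on a dim signal on 1 side. With values under the filter raised to it, the difference was 0.73, still past 1.5-fold. When both arrays had to reach the filter, Frzb dropped out, and 2 genes remained at least 1.5-fold higher, Sfrp1 and Sfrp2, beside 2.04% of the 9710 genes that met this stricter filter.

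Sfrp4 and Sfrp5, the other members of the family, were dim on both arrays. Sfrp5, a close relative of Sfrp1 and Sfrp2 known from fat tissue and the gut, had log2 values of 3.52 on the β-catenin siRNA array and 3.88 on the control siRNA array. Sfrp4, which resembles Frzb more than it does Sfrp1, had 2.41 on the β-catenin siRNA array and 2.83 on the control siRNA array. Their differences of -0.36 and -0.41 went the opposite way from those of the other 3 family members. Neither reached 1.5-fold, and 9.43% and 6.64% of all measured genes had a difference as low or lower. At such values no level can be told from background here, since detection calls were not used.

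Both Dickkopf genes that passed the filter differed by less than 1.5-fold. Dkk3 had a log2 value of 8.85 on the β-catenin siRNA array, against 8.94 on the control siRNA array (difference -0.09). Dkk2, which can inhibit or, in some settings, weakly activate Wnt signalling through Lrp6, had 6.58 on the β-catenin siRNA array and 6.92 on the control siRNA array. Its difference of -0.33, or 79.3% of the control signal, can be set beside the spread among genes of its level, since the robust SD of the difference over the 500 genes nearest in mean level was 0.21. That robust SD mixes noise, culture differences and any effect of the siRNA, so it gives a scale and not an error. On the same scale the difference of Sfrp2 was 6.62 robust SDs, that of Sfrp1 4.32, that of Frzb 3.50, that of Dkk2 -1.63 and that of Dkk3 -0.47.

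Dkk1, the prototype of the family and, in other cells, a known target of β-catenin and TCF factors, had the largest negative difference of the 9 genes, at values under the filter on both arrays. Its log2 value was 3.43 on the β-catenin siRNA array, against 4.31 on the control siRNA array (probe set 10467006, Entrez gene 13380). The difference of -0.87, or 54.7% of the control signal, ranked 103 from the lowest among all 19938 measured genes. On the robust SD scale used above, set by genes of its own dim level, the difference of Dkk1 was -3.22. Without the level filter Dkk1 was the 1 gene of the 9 at least 1.5-fold lower, beside 2.35% of all measured genes, and the same 3 Sfrp genes were at least 1.5-fold higher, beside 2.23%. The last member, Dkk4, had 3.76 on the β-catenin siRNA array and 3.87 on the control siRNA array, a difference of -0.11.

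**Figure D2:**
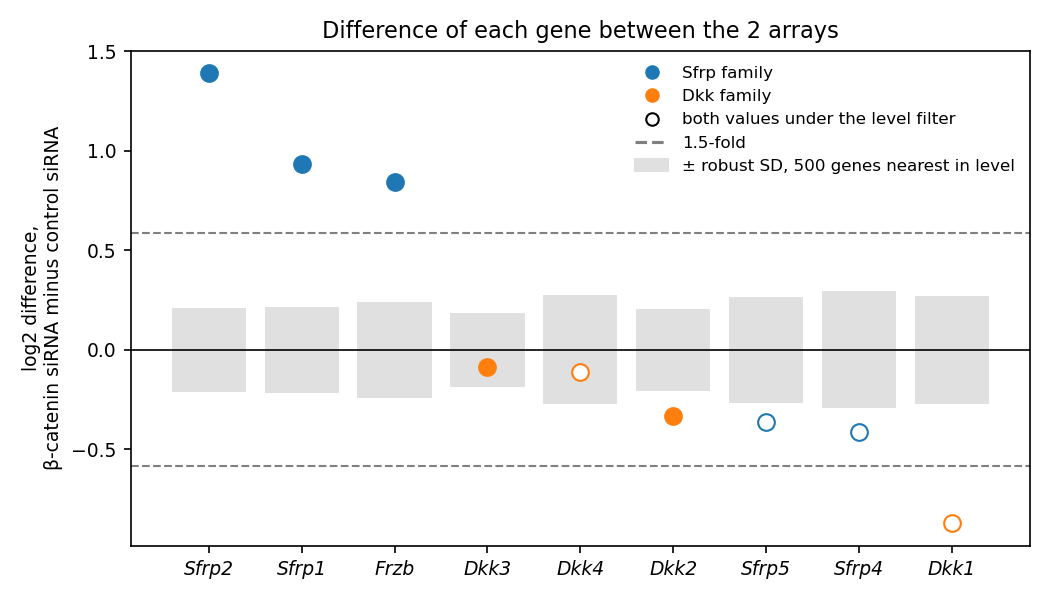
Log2 difference between the β-catenin siRNA array and the control siRNA array for each of the 9 genes, ordered from highest to lowest, with grey bars for ± 1 robust SD of the difference over the 500 genes nearest in mean level and dashed lines at 1.5-fold. Sfrp2, Sfrp1 and Frzb lie above the upper line, Dkk1 lies below the lower one with both values under the level filter (open point), and the other 5 genes lie between the lines.

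Genes of the families that passed the filter can also be compared within the arrays, where the centring of the differences cancels. The ratio of Sfrp2 to Dkk2 signal was 3.30-fold higher on the β-catenin siRNA array than on the control siRNA array, and that of Sfrp2 to Dkk3 was 2.78-fold higher. For Sfrp1 the ratio was 2.41-fold higher relative to Dkk2 and 2.03-fold higher relative to Dkk3. For Frzb, which reached the filter only on the β-catenin siRNA array, the corresponding ratios were 2.26-fold and 1.90-fold higher. These ratios restate the differences given above and leave out the dim genes Sfrp4, Sfrp5, Dkk1 and Dkk4. They show unequal differences and do not show that Dkk2 or Dkk3 stayed the same.

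**Figure D3:**
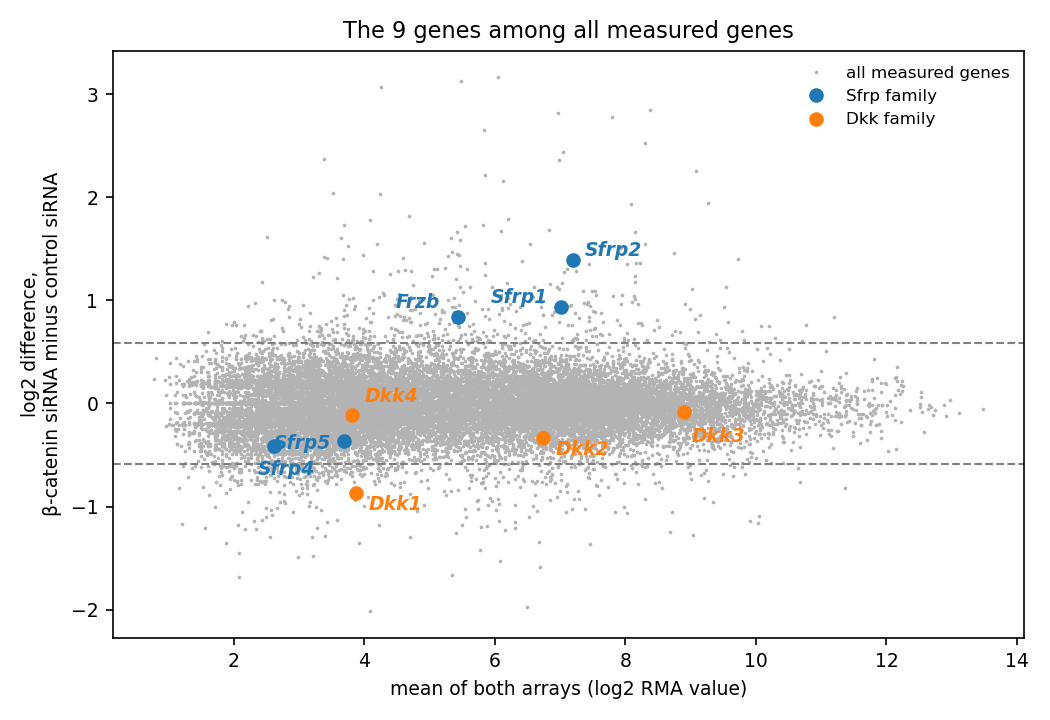
Log2 difference between the β-catenin siRNA array and the control siRNA array against the mean of both arrays for all 19938 measured genes (grey), with the Sfrp genes in blue and the Dkk genes in orange and dashed lines at 1.5-fold. Sfrp1, Sfrp2 and Frzb lie above the bulk of genes of their level, Dkk2 and Dkk3 lie within it, and Dkk1 lies at its lower edge among dim genes.

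Promoter sequences, from RefSeq with coordinates of build GRCm38.p6, were at hand for 5 of the 9 genes, Sfrp2, Frzb, Sfrp5, Dkk1 and Dkk2. The 250 bases before each start were searched on both strands for the TCF/LEF core CTTTGA, which reads TCAAAG on the other strand and is the short sequence through which β-catenin's DNA-binding partners are known to bind. The core was found in 2 of the 5, once in Frzb and on either strand in Dkk1, beside 13.8% of 32851 promoter windows of this length. The sequences of Sfrp2 and Frzb, which were both higher, and of Dkk1, which had the largest negative difference, are shown 5′ to 3′ on the gene's strand, with the TCF/LEF core in capitals.
Sfrp2 (chr3:83766071-83766320, plus strand): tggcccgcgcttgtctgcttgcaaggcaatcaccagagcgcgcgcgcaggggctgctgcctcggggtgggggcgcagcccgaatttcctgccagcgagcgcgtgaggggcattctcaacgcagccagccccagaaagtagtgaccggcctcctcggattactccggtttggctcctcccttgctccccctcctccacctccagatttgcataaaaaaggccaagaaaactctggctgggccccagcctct
Frzb (chr2:80447397-80447646, minus strand): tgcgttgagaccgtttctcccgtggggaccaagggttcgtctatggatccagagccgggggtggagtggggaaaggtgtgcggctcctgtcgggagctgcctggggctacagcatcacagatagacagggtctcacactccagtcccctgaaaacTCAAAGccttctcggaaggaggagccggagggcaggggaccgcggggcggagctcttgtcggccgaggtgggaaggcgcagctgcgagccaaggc
Dkk1 (chr19:30549497-30549746, minus strand): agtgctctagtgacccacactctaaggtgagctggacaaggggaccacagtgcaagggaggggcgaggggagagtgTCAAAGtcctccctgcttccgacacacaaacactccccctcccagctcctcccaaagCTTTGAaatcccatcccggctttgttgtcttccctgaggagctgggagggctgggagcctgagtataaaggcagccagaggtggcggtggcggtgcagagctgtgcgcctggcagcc

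In Frzb the match spans bases 95 to 90 before the start, and in Dkk1 the matches span bases 174 to 169 and 117 to 112. The genes with a match, Frzb and Dkk1, differed in opposite directions, and Sfrp2, with the largest positive difference, held no match in this window. An interferon-response core, TTCNNTTTC on either strand, was found in Sfrp5 and in no other of the 5, beside 7.13% of all windows. A match is a string of letters and no evidence of binding, and the absence of one in 250 bases says nothing about sites elsewhere.

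Of 10 other secreted or surface inhibitors of Wnt signalling measured, 2 passed the level filter, and neither was at least 1.5-fold higher. Apcdd1, a membrane-bound Wnt inhibitor, had a log2 value of 8.64 on the β-catenin siRNA array and 9.38 on the control siRNA array, or 1.66-fold lower. Igfbp4, an insulin-like growth factor carrier that can also bind Lrp6 and Frizzled, had 8.40 on the β-catenin siRNA array and 8.35 on the control siRNA array. Over all 10, 3 had a positive and 6 a negative difference. The 8 others, among them Wif1, Sostdc1 and the Wnt-inactivating enzyme gene Notum, were under the filter on both arrays. Notum was the nearest to it, at 4.45 on the β-catenin siRNA array and 5.12 on the control siRNA array, or 1.58-fold lower. With the mean or the lowest-mean probe set, 2 genes of the list past the filter were at least 1.5-fold lower instead of 1. The list's median difference then changed from -0.34 to -0.66, which is Notum's own difference. The level filter was recomputed from the gene means with each choice.

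The binding partners of the Dickkopfs differed by less than 1.5-fold. The co-receptor gene Lrp6 had log2 values of 7.70 on the β-catenin siRNA array and 7.35 on the control siRNA array, a difference of 0.35. Its relative Lrp5 differed by 0.28, and Kremen1, whose protein binds Dickkopfs at the membrane, differed by -0.33. Kremen2 had both values under the filter (4.30 on the β-catenin siRNA array and 4.18 on the control siRNA array). Lrp5 and Lrp6 were thus slightly higher and Kremen1 slightly lower, all within the 1.5-fold range that holds most genes.

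Genes for other proteins with the cysteine-rich domain of the secreted Frizzled-related proteins, the Frizzled receptors included, went both ways. Of 8 Frizzled receptor genes past the filter, 1 was at least 1.5-fold higher and none at least 1.5-fold lower. The shares over all genes past the filter were 2.76% and 1.84%. The median difference of the 8 was -0.03. Fzd4 was the higher one, at 5.23 on the β-catenin siRNA array and 4.20, under the filter, on the control siRNA array. The next largest differences were -0.58 for Fzd1, -0.40 for Fzd6 and 0.30 for Fzd8. Among 5 other genes for proteins with a Frizzled-type cysteine-rich domain that passed the filter, none reached 1.5-fold. The Wnt receptor genes Ror1 and Ror2 differed by -0.55 and -0.50, Cpz, a carboxypeptidase that binds Wnt, by -0.36, and Col18a1, a basement membrane collagen, by 0.34.

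Of 8 Wnt ligand genes past the filter, 7 had a negative difference, as did 5386 of all 10197 genes past the filter. A decrease of 1.5-fold or more was seen in 2 of the 8, beside 1.84% of all genes past the filter. An increase of that size was seen in 1 ligand gene, beside 2.76%. Wnt2b had a difference of -0.95, Wnt9a of -0.65 and Wnt5a, which mostly acts without β-catenin, of -0.53. Wnt2 was the higher one, at 0.59, with a value of 4.57 on the control siRNA array under the filter. Wnt3a, 1 of the 7 with a negative difference, passed only on the control siRNA array (5.15, against 4.78 on the β-catenin siRNA array). The median over the 8 ligand genes was -0.35, and it was -0.09 over all 19 measured. With values under the filter raised to it, the median over the 8 was -0.21. The 7 feedback and other target genes of the pathway that passed the filter, which β-catenin is known to induce, all had negative differences. Their median was -0.52, and 3 exceeded 1.5-fold downward, beside 1.84% of all genes past the filter. Nkd2 and Nkd1, intracellular inhibitors of the pathway, each differed by -0.93, Axin2, which holds together the complex that degrades β-catenin, by -0.75, and Ccnd1, which encodes cyclin D1, by -0.52. The group of Wnt inhibitors thus held genes in both directions, with Nkd1, Nkd2, Axin2 and Apcdd1 lower and Sfrp1, Sfrp2 and Frzb higher on the same pair of arrays.

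**Figure D4:**
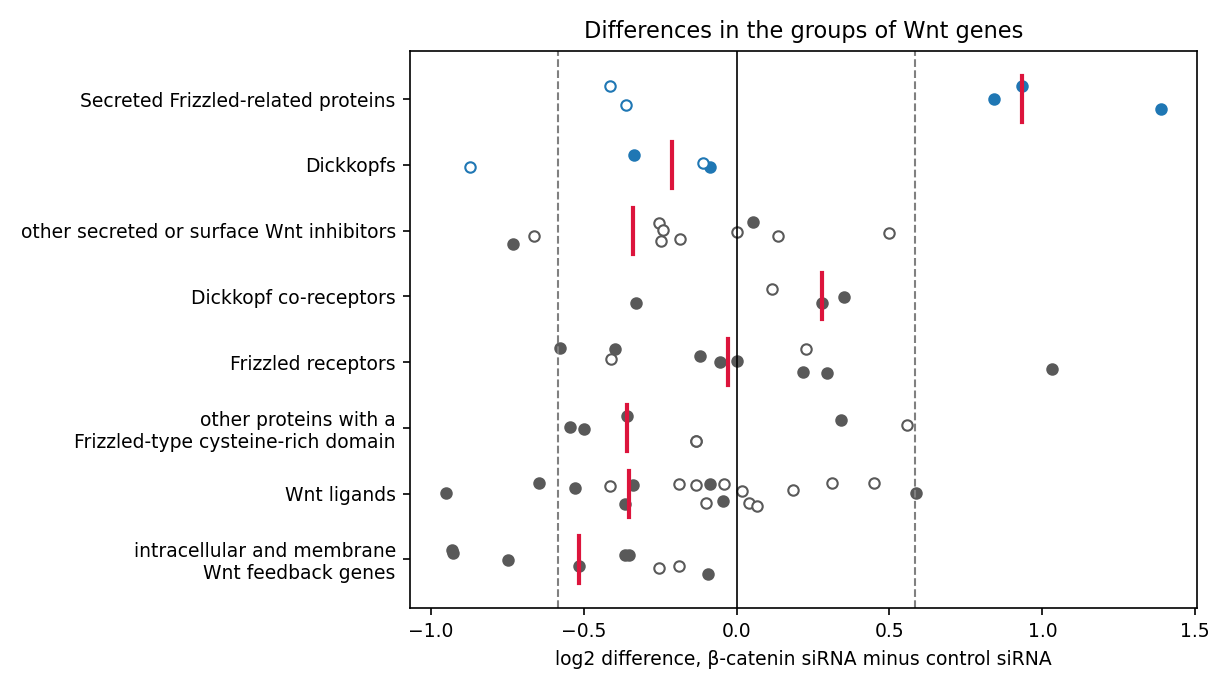
Log2 differences between the β-catenin siRNA array and the control siRNA array for the genes of 8 groups of Wnt genes, with filled points for genes past the level filter, open points for genes under it, red bars at the median of the filled points and dashed lines at 1.5-fold. The Sfrp genes past the filter lie to the right of the upper line (median 0.93). The group labelled as feedback genes, which also holds other targets such as Ccnd1, lies to the left of 0 (median -0.52).

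Markers of cell state and of other cell types also differed between the arrays. Among the 12 fibroblast markers, 4 were at least 1.5-fold higher, beside 2.76% of all genes past the filter. These were Lum, Dpt, Dcn and Pdgfra, with differences from 0.75 to 1.29. In all, 8 of the 12 had a positive and 4 a negative difference, Col1a1, Col1a2, Vim and Thy1, the lowest being -0.15 for Thy1. The median over the list was 0.19. Of 14 keratinocyte markers, 7 passed the filter and all 7 had positive differences. Of the 7, 4 exceeded 1.5-fold upward, beside 2.76% of all genes past the filter. On the control siRNA array 6 of the 7 reached the filter, and Epcam (4.76, against 5.26 on the β-catenin siRNA array) did not. The summed linear signal of all 14 markers was 1.45-fold higher. On the log2 scale it was 10.56 on the β-catenin siRNA array and 10.02 on the control siRNA array. Krt5 and Krt14, keratins of basal keratinocytes, differed by 1.02 and 0.62. The other 7 markers were under the filter on both arrays, with differences that included 0.22 for Krt1, 0.01 for Trp63, -0.55 for Krt15 and -0.70 for Lor. Of 13 interferon-stimulated genes past the filter, 12 exceeded 1.5-fold upward, beside 2.76% of all genes past the filter. The median of the 13 was 1.68. On the control siRNA array 8 of the 13 reached the filter. With both arrays required at it the count was 7, beside 2.04% of all genes that met it, and the median was 1.36. Among all 13 the largest differences were those of Ifit1 (3.13), Cxcl10 (2.82), Ifit3 (2.66) and Rtp4 (2.22). The part of these shifts in the Sfrp differences was not tested. In such bulk RNA a different share of a cell type and a different RNA level per cell cannot be told apart.

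Genes with the differences nearest to those of the 3 higher Sfrp genes were found by the absolute gap between log2 differences over the 2 arrays. The nearest to Sfrp2 were Sox9 (1.39), Ccl7 (1.40) and Slc1a3 (1.41). For Sfrp1 they were Dtx3l (0.93), Vdr (0.93) and Clca3a2 (0.94), and for Frzb they were Lgr4 (0.84), Hivep2 (0.84) and Tril (0.85). Slc1a3 (3.89), Clca3a2 (4.88) and Tril (5.08) were under the level filter on the control siRNA array and passed only on the β-catenin siRNA array. With a single difference per gene, such nearness is a matter of size alone. Measured genes next to the 9 on the chromosome, by the RefSeq gene order, were 18 in number, and 13 of them passed the filter. Tlr2, beside Sfrp2, was the 1 neighbour of these 13 past 1.5-fold, with a difference of 0.70. Mical2, beside Dkk3, lay just short of 1.5-fold in the other direction, with a difference of -0.58. Both were looked at after their values were seen.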

How the data were processed

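Gene expression was measured on 1 Affymetrix whole-transcript array per group from 300 ng of total RNA, per the labels' protocols. The deposited values are log2 values made by the authors with RMA, per the submitters' processing notes; that they are log2 was judged from their range of 0.485 to 13.5. Which software version was used was not given in the sources used here. Of 28944 probe sets, 21789 had 1 gene symbol, 1621 several and 5534 none in the platform annotation; those without exactly 1 symbol were not used. Symbols were updated through a RefSeq table of GRCm38.p6, in which 21698 of the single-symbol probe sets were found. The probe set with the highest mean stood for a gene. The control siRNA value was subtracted from the β-catenin siRNA value (Python 3.11.15, pandas 2.3.3). A 1.5-fold size was the criterion for counts, beside the level filter. The robust SD is 1.4826 times the median absolute deviation. The number of arrays limits the precision, and no test was possible.

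Genes named were the 9 members, Ctnnb1, all Dickkopf co-receptors, the 4 largest absolute differences past the filter in each other pathway list and in the interferon-stimulated list, and the 3 genes nearest in difference to each of the 3 members with the largest absolute differences among those past the filter. Other names (Wif1, Sostdc1, Notum, Wnt3a, Tlr2, Mical2 and the markers) were added after their values were seen. Members and lists were chosen with earlier results of these data known. The alternatives were median and lowess centring (span 0.3), the mean or the lowest-mean probe set, no or a stricter level filter, a floor at the filter and a 2-fold size.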

Additional observations from a re-analysis of the deposited data

How the results depend on the processing

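Median and lowess centring changed no count of Sfrp and Dkk genes, and each of the 9 genes has 1 probe set, so the choice of probe set could not move their differences. Across the alternatives the difference of Sfrp2 ranged from 1.39 to 1.41, that of Sfrp1 from 0.93 to 0.95 and that of Frzb from 0.73 to 0.86. With the floor at the level filter the differences of Dkk1, Sfrp4, Sfrp5 and Dkk4 became 0.00 by construction, since both their values lay under it. At 2-fold, 1 gene was higher (Sfrp2), beside 0.912% of all genes past the filter. Without the level filter 1 gene was at least 1.5-fold lower (Dkk1), and the median over the genes changed sign to -0.11, because 4 dim genes entered. With both arrays required at the filter the median was 0.42 over 4 genes, as Frzb left. Among the counts and medians of the Wnt and interferon lists, 17 of 161 recomputed values moved by more than 1.5 times (counts) or by more than the robust SD of 0.22 (medians). No replicate could be left out, and no paired analysis was possible because each group had 1 array. Dim probe sets limit what can be said of Sfrp4, Sfrp5, Dkk1 and Dkk4.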
